A study of Mus musculus with 9 samples.

Results

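Taste transduction and taste cell genes were followed through RNA of intact tongue from mice in which Bmi1, a subunit of the chromatin-silencing Polycomb repressive complex, was switched on in the epithelium. The members are 10 named genes, Tas1r1, Tas1r2, Tas1r3, Gnat3, Gng13, Plcb2, Trpm5, Pou2f3, Pkd2l1 and Entpd2, and all 10 were found by symbol among 20512 gene symbols in the deposited expression table. They were chosen by name for their roles in taste cells, with earlier results of these data known. The control group held 5 libraries from mice with the K14-rtTA transgene alone. In these mice the keratin 14 promoter, active in basal epithelial cells, drives a doxycycline-dependent activator. The transgene group held 4 libraries from mice that carried both K14-rtTA and TREFLBmi-1, so that the activator could switch on Bmi1. Mice of both groups were on a C57/Bl6 by FVB/NJ mixed background, were about 6 weeks old and had drunk doxycycline at 2 mg/mL for 1 week. Nothing in the labels ties each library to its own mouse, so p-values measure only the spread between these libraries, which may be in part technical. Values are the authors' log2 normalized expression, so that 1 unit is a doubling. No read totals come with these values and depth is unknown.

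Taste buds are clusters of modified epithelial cells in the fungiform papillae at the front of the tongue and in the foliate and circumvallate papillae at its back, and they are renewed throughout life from keratin 14-expressing basal cells. Type II cells detect sweet, umami or bitter compounds. Their receptors act through a G protein and a phospholipase to release calcium from stores, which opens the cation channel encoded by Trpm5 and leads to the release of ATP onto nerve endings. Type III cells detect acids and have synapses, and glia-like type I cells wrap the others and break down the released ATP.

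Sequence upstream of the transcription start is given for a pair of members, Tas1r2 and Trpm5, since their values followed each other more closely between libraries than those of any other pair of members, as described further on. Each run is 300 bases from RefSeq on GRCm38.p6, with 250 bases before the start site and 50 after it, read 5′ to 3′ on the gene's strand. Capitals mark TGCAAAT, which is the octamer ATGCAAAT of POU-domain factors such as Pou2f3 without its first base; both strands were searched, and the shorter run lies inside every octamer.
Tas1r2 (chr4:139653288-139653587, plus strand): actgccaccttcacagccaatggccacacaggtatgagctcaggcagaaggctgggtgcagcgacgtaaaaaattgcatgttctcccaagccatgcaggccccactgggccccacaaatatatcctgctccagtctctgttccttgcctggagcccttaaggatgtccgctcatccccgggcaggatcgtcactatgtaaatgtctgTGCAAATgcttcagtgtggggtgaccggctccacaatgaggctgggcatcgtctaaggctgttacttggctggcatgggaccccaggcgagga
Trpm5 (chr7:143094593-143094892, minus strand): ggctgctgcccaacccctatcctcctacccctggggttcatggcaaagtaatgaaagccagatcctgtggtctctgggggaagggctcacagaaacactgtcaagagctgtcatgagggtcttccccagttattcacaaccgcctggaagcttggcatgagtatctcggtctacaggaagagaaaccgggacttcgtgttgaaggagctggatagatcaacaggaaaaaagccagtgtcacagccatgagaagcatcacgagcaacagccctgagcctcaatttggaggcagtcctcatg

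The capitals in the Tas1r2 run begin at position -43 from the start site, and the Trpm5 run holds none. RefSeq promoters were found for 8 of the 10 members, as 9 runs because Gng13 has an alternative start. TGCAAAT or its reverse complement was found in 1 of these 9 runs, that of Tas1r2, and in 4.02% of all 32851 promoter runs of the same length. The whole octamer was found in 0 of the 9 and in 1.74% of all runs. These matches describe letters in a short window and say nothing of binding.

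Members differed widely in level. Divided by transcript length, as log2 level per kilobase, the order over all 9 libraries ran from Entpd2 at 8.59 and Pou2f3 at 6.49 through Plcb2 at 3.67, Gnat3 at 3.53, Tas1r3 at 2.82, Gng13 at 2.63, Tas1r1 at 2.41 and Trpm5 at 1.26 to Tas1r2 at 0.34 and Pkd2l1 at 0.26. Only the last pair of neighbours overlapped between libraries on this scale, with Tas1r2 from 0.27 to 0.41 and Pkd2l1 from 0.23 to 0.31. All other neighbours were separate in every library, though Plcb2 at its lowest (3.59) was close to Gnat3 at its highest (3.57). The spread of low genes had been drawn together before deposit, as described further on, so separation of low members says little about their order in RNA. Lengths are those of the longest coding transcript in the GENCODE M21 basic annotation, and an error in a length would shift that gene's place.

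The highest members are not specific to taste cells. Entpd2 is also made by glia of peripheral nerves, Pou2f3 by suprabasal keratinocytes and Plcb2 by white blood cells, and intact tongue holds all of these. The keratinocyte gene Krt13 stood at a mean log2 level of 18.64, the Schwann cell gene Sox10 at 8.49 and the leukocyte gene Ptprc at 7.96. The share that each cell type gave to a member's level was not tested. In such bulk RNA, fewer cells of a type and less RNA per cell cannot be told apart.

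The deposited values of low genes hardly varied, and most members are such genes. Gng13 had a within-group SD of 0.0151 at a level of 2.16, and the median SD of 578 genes at about that level (within 0.5) was 0.023. The log2 of a read count of that size, 4.46, would have an SD of 0.683 from counting alone. Trpm5 had an SD of 0.0815 against a counting SD of 0.459, and Gnat3 had 0.0399 against 0.364. Entpd2 and Pou2f3 were the only members with an SD above that of such a count, at 0.136 against 0.0529 and 0.116 against 0.0941. Small differences, SEs and intervals of the other 8 members are thus on a scale that had been drawn together before deposit, and they set no bound on the change in RNA.

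**Figure D1:**
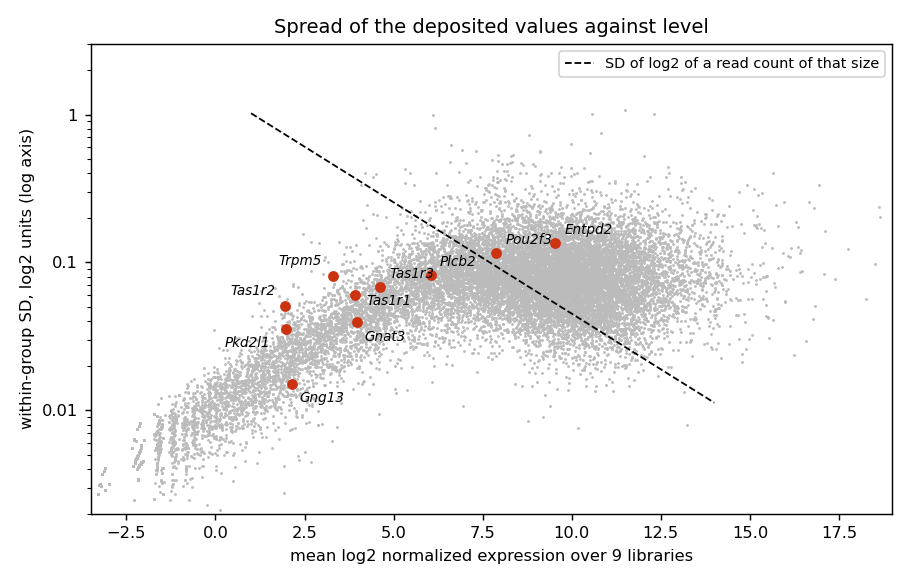
Within-group SD of the log2 values (vertical, log axis) against mean log2 normalized expression over 9 libraries (horizontal), with each of 17448 genes as a grey point and the 10 taste genes in red; the dashed line is the SD that counting alone would give the log2 of a read count of that size. Entpd2 and Pou2f3 lie above the line, and the members at lower levels lie below it.

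The deposited values also lack part of the variation between libraries. Libraries in groups of 5 and 4 can vary in 7 directions within groups, and 5 directions held variation. A single partition into 3 sets, of 3003 examined, left no effect of the sets in any tested gene beyond the group means. These sets are called strata. Stratum 1 is control replicate 1 with transgene replicate 1, stratum 2 is control replicates 2 and 3 with transgene replicates 2, 3 and 4, and stratum 3 is control replicates 4 and 5. It follows that control replicate 1 and transgene replicate 1 deviate from their group means by equal and opposite amounts in each gene, as do control replicates 4 and 5. No label says what the strata stand for. The test of each gene was limma with terms for group and strata, over the 14490 genes whose mean log2 value was 3 or more. The p-values are two-sided and adjusted by the Benjamini-Hochberg method. Limma with the group alone, given as an alternative, counts 7 residual degrees of freedom where only 5 directions held variation. Its p-values therefore come out too small and its calls too many.

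Bmi1, the induced gene, had a mean of 10.40 ± 0.21 (SD, n = 5) in controls and 12.84 ± 1.37 (SD, n = 4) with the transgene. The difference was 2.44 (SE 0.60), with a limma adjusted p of 0.0672 with stratum terms and 0.00719 with the group alone, and all transgene libraries lay above all controls. Transgene replicates 1 to 4 stood at 12.49, 12.05, 14.87 and 11.94, so replicate 3 raised both the mean and the SD. Without replicate 3 the difference was 1.77 (limma adjusted p 1.61e-06 with stratum terms). Whether the Bmi1 signal was transgene or endogenous transcript was not separated. With stratum terms, the hard keratins of filiform papillae were the one list compared below with called genes, 6 of 12, all lower; with the group alone other lists had calls too.

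No taste gene passed the test between the groups. Of the 7 members that reached the level for testing, limma with stratum terms called 0 at an adjusted p under 0.05, and 0 had an unadjusted p under 0.05. Over all tested genes 1.66% were called and 23.0% had an unadjusted p under 0.05. With the group as the only term, limma also called 0 of the 7, with 0 at an unadjusted p under 0.05, where 24.4% of all tested genes were called. The other 3 members, Tas1r2, Gng13 and Pkd2l1, were fitted with no filter on level. In that fit limma called 0 of the 10, with 0 at an unadjusted p under 0.05, against 0.871% of all genes called. The groups overlapped for every member, whereas they did not overlap in 19.7% of all 17448 genes with values. Permutation tests over all assignments of the libraries to groups of 5 and 4, which ignore the strata, gave two-sided p-values from 0.119 for Gng13 to 0.968 for Pkd2l1. With the 20 assignments that keep the strata, the lowest permutation p of a member was 0.2, where 0.05 is the smallest possible.

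Differences were small throughout, with 7 members lower and 3 higher in transgene tongues and a median of -0.02 over all 10. The median over all genes with values was 0.00. In absolute size the 7 tested members had a median difference of 0.04, and all tested genes had 0.07. The share of genes with an unadjusted p under 0.05 was larger at higher levels, from 6.99% at log2 levels of 3 to 5 to 26.3% at levels of 8 to 12, so the shares over all genes are not those of genes as low as most taste members. The authors' deposited table lists 981 genes (5.62% of the genes with values), with adjusted p-values up to 0.0498, and holds 0 of the 10 members.

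**Figure D2:**
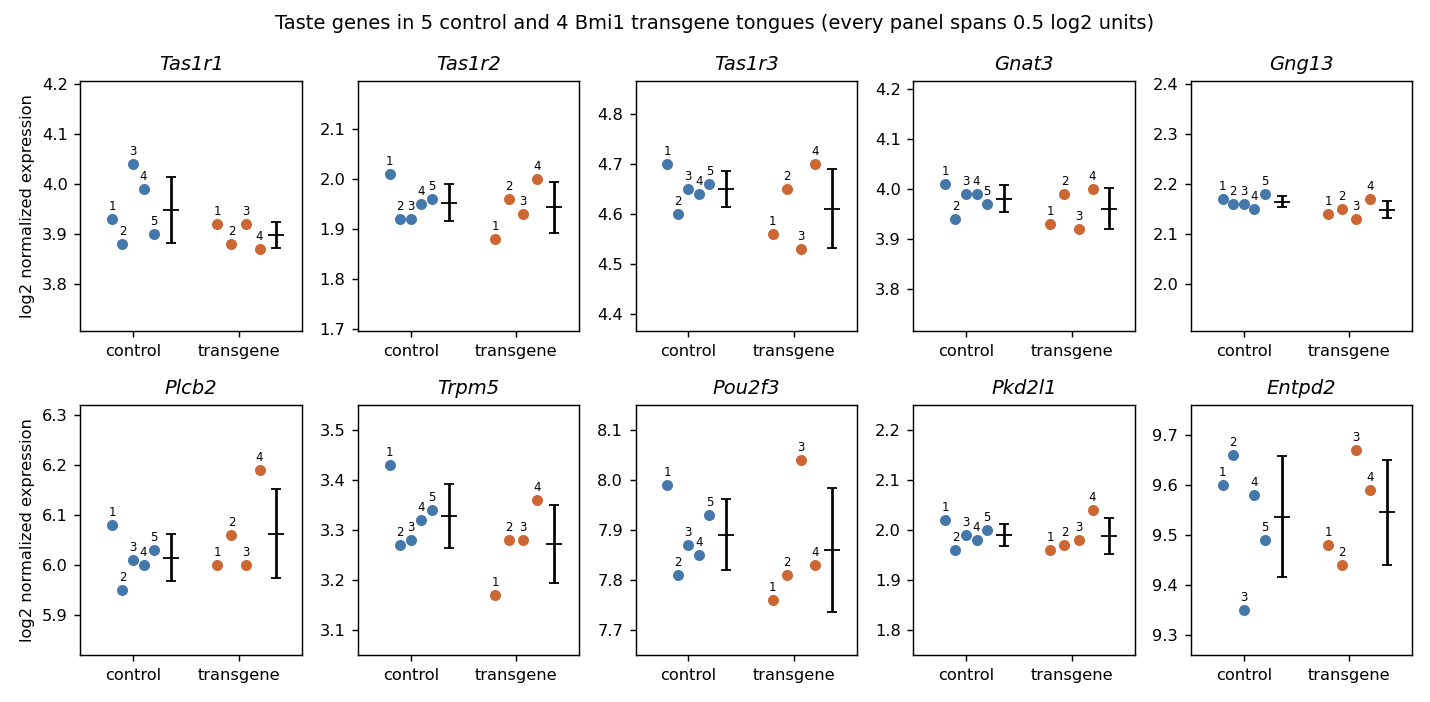
Log2 normalized expression of each taste gene (vertical, a span of 0.5 in every panel) in 5 control (blue) and 4 transgene (orange) libraries, with replicate numbers above the points and the group mean with its SD as a black bar. The groups overlap in all 10 panels, and transgene replicate 1 is the lowest library for Trpm5 (3.17), Tas1r2 (1.88) and Pou2f3 (7.76).

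The taste receptor genes stand first in the pathway. Tas1r1, which with Tas1r3 forms the umami receptor, stood at 3.93, 3.88, 4.04, 3.99 and 3.90 in control replicates 1 to 5 and at 3.92, 3.88, 3.92 and 3.87 in transgene replicates 1 to 4. Transgene replicates 1 to 3 lay in the lower part of the control range and replicate 4 just below it. The difference was -0.05 (SE 0.04, 95% interval -0.14 to 0.04, limma adjusted p 0.482).

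Tas1r2, which with Tas1r3 forms the sweet receptor, stood at 2.01, 1.92, 1.92, 1.95 and 1.96 in controls and at 1.88, 1.96, 1.93 and 2.00 in transgene libraries. Both groups spread over the same range, with control replicate 1 at the top and transgene replicate 1 at the bottom. The difference was -0.01 (SE 0.03, interval -0.08 to 0.06, limma adjusted p 0.888 in the fit with no filter). Tas1r3, the subunit shared by both receptors, stood at 4.70, 4.60, 4.65, 4.64 and 4.66 in controls and at 4.56, 4.65, 4.53 and 4.70 with the transgene. Transgene replicates 1 and 3 lay below all controls and replicate 4 reached the highest control. Its difference was -0.04 (SE 0.05, interval -0.14 to 0.07, limma adjusted p 0.659).

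The genes of the type II G protein came next. Gnat3 encodes gustducin, the alpha subunit, and stood at 4.01, 3.94, 3.99, 3.99 and 3.97 in controls and at 3.93, 3.99, 3.92 and 4.0 in transgene libraries. The library values lay within 0.09 of each other, and the groups overlapped over nearly the whole range. The difference was -0.02 (SE 0.03, interval -0.09 to 0.05, limma adjusted p 0.732).

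Gng13 encodes the gamma subunit that pairs with gustducin. Its values were 2.17, 2.16, 2.16, 2.15 and 2.18 in controls and 2.14, 2.15, 2.13 and 2.17 in transgene libraries. It had the narrowest range of the members, at 0.04, with transgene replicates 1 and 3 lowest and transgene replicate 4 level with control replicate 1 near the top. The difference was -0.02 (SE 0.02, interval -0.05 to 0.02, limma adjusted p 0.607 with no filter).

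Downstream of the G protein, Plcb2 encodes the phospholipase that makes the calcium-releasing messenger. It stood at 6.08, 5.95, 6.01, 6.00 and 6.03 in controls and at 6.00, 6.06, 6.00 and 6.19 with the transgene. Transgene replicate 4 was above all controls and the other transgene libraries lay among them. The difference was 0.05 (SE 0.06, interval -0.08 to 0.18, limma adjusted p 0.65).

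Trpm5, the calcium-gated cation channel, had the largest difference of the 10, at -0.06 (SE 0.05, interval -0.17 to 0.05, limma adjusted p 0.514). Its controls were at 3.43, 3.27, 3.28, 3.32 and 3.34 and its transgene libraries at 3.17, 3.28, 3.28 and 3.36. Control replicate 1 was the highest library and transgene replicate 1 the lowest, and the others lay together between 3.27 and 3.36. Without that pair of libraries the Trpm5 difference was 0.03 (limma adjusted p 0.588), so its sign rested on them.

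Pou2f3 encodes the transcription factor without which type II cells do not form. Its controls were at 7.99, 7.81, 7.87, 7.85 and 7.93 and its transgene libraries at 7.76, 7.81, 8.04 and 7.83. The extremes on both sides were transgene libraries, with replicate 3 highest and replicate 1 lowest. The difference was -0.03 (SE 0.08, interval -0.21 to 0.14, limma adjusted p 0.84), and it was 0.05 without the libraries of stratum 1 (adjusted p 0.697).

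Pkd2l1, which marks the acid-sensing type III cells, stood at 2.02, 1.96, 1.99, 1.98 and 2.00 in controls and at 1.96, 1.97, 1.98 and 2.04 in transgene libraries. Values of both groups were mixed, with transgene replicate 4 on top. The difference was 0.00 (SE 0.02, interval -0.05 to 0.05, limma adjusted p 0.993 with no filter).

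Entpd2, the ATP-degrading enzyme of type I cells, stood at 9.60, 9.66, 9.35, 9.58 and 9.49 in controls and at 9.48, 9.44, 9.67 and 9.59 with the transgene. It had the widest range of the members, at 0.32, and control replicate 3 was the lowest library. Since Entpd2 was high enough to keep its spread, its interval is the most readable: the difference was 0.01 (SE 0.09, interval -0.18 to 0.20), which is a 1.01-fold level with bounds of 0.882 and 1.15 (limma adjusted p 0.955).

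**Figure D3:**
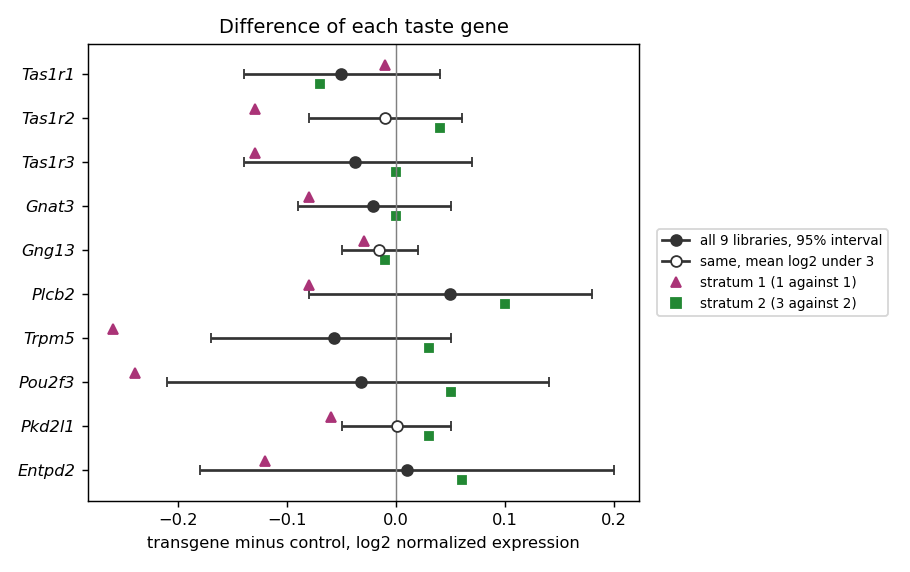
Transgene minus control difference of each taste gene in log2 normalized expression (horizontal), with black points and 95% intervals from all 9 libraries (open points for members with a mean log2 value under 3), triangles for the pair of libraries in stratum 1 and squares for stratum 2. Every interval spans 0, and the triangles lie lower than the squares for all members but Tas1r1.

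The strata differed in direction. In stratum 1, which is 1 library against 1, all 10 members were lower with the transgene, from -0.01 for Tas1r1 to -0.26 for Trpm5, with a median of -0.10. Over all genes with values 49.5% were lower in that pair, and of the 40 other tested taste genes 23 were lower and 17 higher. In stratum 2, which is 3 against 2, 2 of the 10 members were lower and 8 were higher, with a median of 0.03. There 46.8% of all genes were lower, and of the other tested taste genes 12 were lower and 28 higher. Stratum 1 carries no replicate, and the difference between strata was not tested.

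Keratinocyte genes were lower in the same pair, 16 of 16 in the list, with a median of -0.35. Among them Krt13, a keratin of the tongue surface, differed by -0.55, the basal keratin gene Krt5 by -0.39 and Trp63, a factor of basal cells, by -0.25. In stratum 2 4 of the 16 were lower and 12 higher, with a median of 0.06. The summed level of the list ran from 19.90 to 20.30 in controls and from 19.83 to 20.24 with the transgene, and its part in the taste gene values was not tested. Krt5 and Trp63 are named after their values were seen. Of 9 tested Schwann cell genes, 7 were lower in stratum 1 and 2 in stratum 2. Muscle genes went the other way, with 2 lower and 9 higher in stratum 1 and 7 lower and 4 higher in stratum 2. The tuft-like and leukocyte genes were 4 lower and 4 higher in stratum 1.

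Some genes of the minor salivary glands were also lower in that pair. The von Ebner glands empty into the trench around the circumvallate taste buds, so their transcripts mark the back of the tongue. Lipf, encoding lingual lipase, was at 13.41 in control replicate 1 and 11.93 in transgene replicate 1, a difference of -1.47, against 0.17 in stratum 2. Bpifa2, a secreted salivary protein gene, differed by -1.83 in stratum 1 and 0.14 in stratum 2. Bpifb1 (-1.81) and Car6 (-0.78), a salivary carbonic anhydrase gene, were also lower in stratum 1 and are named after their values were seen.

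The 14 tested genes of the gland list were not uniform in the pair, with 8 lower and 6 higher, and in stratum 2 they were 2 lower and 12 higher. Their summed level ran from 13.87 to 14.57 in controls and from 13.57 to 14.14 with the transgene, and Obp2b and Pip stood at 0 in every library. The part of gland tissue, or of the region of tongue taken, in the taste gene values was not tested. In all 9 libraries Lipf (-0.31, limma adjusted p 0.473) and Bpifa2 (-0.44, adjusted p 0.399) did not pass.

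Several members followed each other from library to library. After the group means were subtracted, Tas1r2 and Trpm5 had r = 0.99 over the 9 libraries, and Tas1r3 had r = 0.94 with Gnat3 and 0.95 with Plcb2. The 10 pairs among Tas1r2, Tas1r3, Gnat3, Gng13 and Trpm5, a group picked after the values were seen, ran from 0.65 to 0.99, and from 0.50 to 0.96 over the 7 libraries outside stratum 1. Tas1r1 followed the others least, with r from -0.54 with Gng13 to 0.10 with Gnat3. Entpd2 had r from -0.46 with Tas1r1 to 0.39 with Pou2f3. Pou2f3 had r = 0.54 with Trpm5 and 0.42 with Tas1r2 but -0.09 with Tas1r3, and outside stratum 1 the first of these was -0.08 and the second -0.36. Of the 28 pairs of type II members, 16 had r above 0.5 and 8 had r below 0, with a median of 0.66. High r was not particular to type II members. The type III member Pkd2l1 had r = 0.94 with Plcb2, 0.85 with Trpm5 and 0.84 with Tas1r2. Its r was lower with Pou2f3 (0.34) and Tas1r1 (-0.14). These values describe 9 libraries that hold only 5 independent directions and that share their normalization, so they carry no p.

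Many other genes shared this pattern. Of 14483 other tested genes, 639 (4.41%) had r above 0.9 with the mean of the 6 tested type II members. The 5 most alike were 4932438A13Rik, Mycbp2, Zfp266, Urb2 and Ankrd17, each with r of at least 0.996 over the 9 libraries and none of them a taste gene. By the same measure, the gene most like each of the tested members other than Plcb2 was Uhrf1bp1 for Tas1r1 (0.99), Ttc39b for Tas1r3 (1.00), Rev3l for Gnat3 (1.00), Klf5 for Trpm5 (0.99), Aldh9a1 for Pou2f3 (0.99) and Hist1h2ba for Entpd2 (0.99). These highest r values were picked by a search over 14483 genes whose values hold only 5 directions of variation. Whether they reflect a link between the genes was not tested. The basal keratin gene Krt5, chosen after its values were seen, had r = 0.95 with both Trpm5 and Tas1r2 and 0.89 with Plcb2 and Pkd2l1, and Lipf had r = 0.91 with Trpm5, which was 0.47 outside stratum 1. The part of epithelial content in these values was not tested.

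Entpd2 followed other genes. It had r = 0.79 with the leukocyte gene Coro1a, which was 0.85 over the 7 libraries outside stratum 1, and 0.74 with Ptprc. Its r with Sox10, a factor of Schwann cells, was 0.52. The part of nerve or blood cells in the Entpd2 level was not tested.

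**Figure D4:**
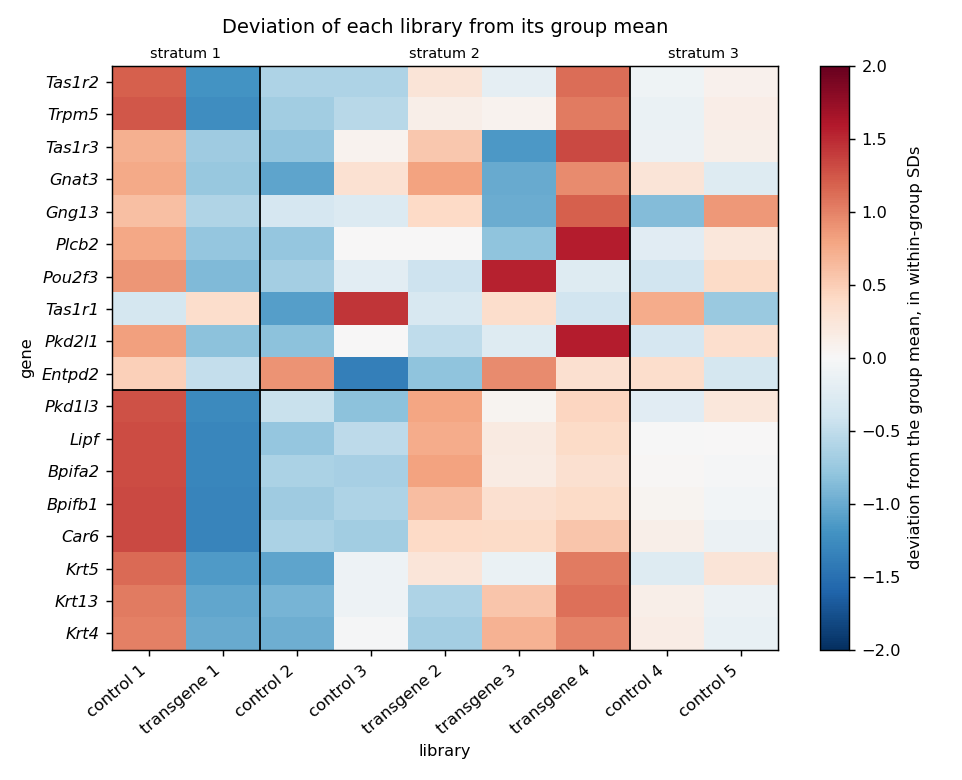
Deviation of each library (columns, by stratum) from its group mean for the 10 taste genes (above the line) and for sour channel, gland and keratinocyte genes picked after their values were seen (below it), in units of each gene's within-group SD, red above and blue below the mean. Among the taste genes control replicate 1 is red and transgene replicate 1 blue for all but Tas1r1, these columns being mirror images by construction, and transgene replicate 4 is high for Plcb2 and Pkd2l1.

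Other genes of taste cells gave 0 calls. Of 90 such genes in the lists, 87 were rows of the table, 18 of these stood at exactly 0 in every library, 29 were below the level for testing and 40 were tested. Limma with stratum terms called 0 of the 40, and their median difference was 0.00. At an unadjusted p under 0.05 there were 6 higher and 0 lower, against 23.0% of all tested genes in either direction. With the group alone limma called 6 higher and 1 lower, against 24.4% of all tested genes. The groups did not overlap in 7 of the 40, against 21.3% of all tested genes.

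In the type II list, the inositol trisphosphate receptor gene Itpr3, through which calcium leaves the stores, had the highest level and the largest difference among 12 tested genes, at 0.17 (SE 0.11, limma adjusted p 0.388). Gnb3, the beta subunit that joins gustducin, differed by -0.12 (adjusted p 0.372) and Gna14, an alpha subunit of taste buds at the back of the tongue, by -0.11 (adjusted p 0.238). Scn3a, a voltage-gated sodium channel gene of type II cells that neurons share, was the list's 1 member at an unadjusted p under 0.05, with a difference of 0.13 (adjusted p 0.0961). These last 3 are named after their values were seen. Of the ATP release channel genes, Calhm1 stood at -3.30 and Calhm3 had no row.

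Bitter receptors could not be compared. All 35 Tas2r genes of the list were in the table, 18 of them at exactly 0 in every library and 17 with mean log2 values between -3.26 and -0.46.

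Among 12 tested type III genes, limma called 0. At an unadjusted p under 0.05 there were 2 higher and 0 lower, against 23.0% of all tested genes in either direction. The adhesion molecule gene Ncam1, which nerves and muscle share with type III cells, had means of 8.68 ± 0.07 (SD, n = 5) in controls and 8.90 ± 0.03 (SD, n = 4) with the transgene. The difference was 0.22 (SE 0.06), with a limma adjusted p of 0.0806 with stratum terms, 0.00527 with the group alone and 0.045 without the libraries of stratum 1. Of the 14490 tested genes, the fit with the group alone called 3537 and the fit without stratum 1 called 1840. The lowest transgene value of Ncam1, 8.86, lay above its highest control, 8.77. The potassium channel gene Kcnj2, also a muscle gene, differed by 0.19 (SE 0.06, adjusted p 0.126). Close to acid sensing stood the proton channel gene Otop1 at a difference of -0.04 (limma adjusted p 0.593) and the Pkd2l1 partner Pkd1l3 at -0.03 (adjusted p 0.666), both named after their values were seen.

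The type I list had 4 tested genes besides Entpd2, and limma called 0, with 0 at an unadjusted p under 0.05. Which tongue cells gave the level of the next gene, Fxyd6, and whether type I cells did, was not tested. Fxyd6, a sodium pump regulator, stood above every member, at 13.67 ± 0.09 (SD, n = 5) in controls and 13.52 ± 0.10 (SD, n = 4) with the transgene. Its difference was -0.14 (SE 0.08, limma adjusted p 0.284), but -0.26 without the libraries of stratum 1, where it was called (adjusted p 0.0144). That setting, added after seeing the data, called 1840 of 14490 tested genes, against 240 in the main fit. Fabp3, the list's largest difference and a lipid carrier of muscle, was at -0.15 (adjusted p 0.596).

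In the list of bud keratins, progenitor factors and nerve receptors, limma called 0 of 12. At an unadjusted p under 0.05 there were 3 higher and 0 lower, against 23.0% of all tested genes in either direction. The keratin gene Krt19 had the largest difference, at 0.26 (SE 0.14, limma adjusted p 0.316), and Sox2, a factor of taste progenitors, differed by -0.11 (SE 0.07, adjusted p 0.404). The ATP receptor genes of taste nerves, P2rx2 at -0.01 (adjusted p 0.917) and P2rx3 at 0.02 (adjusted p 0.839), are named after their values were seen.

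Lists for the other tissues of the tongue set the members in context. With stratum terms limma called 0 members of the keratinocyte (16 tested), muscle (11 tested), Schwann cell (9 tested), gland (14 tested) and tuft-like and leukocyte (8 tested) lists. At an unadjusted p under 0.05 these held 1 higher and 2 lower, 0 and 2, 1 and 0, 1 and 0, and 2 and 1 in that order. The share over all tested genes was 23.0%. The medians of the lists were -0.05, -0.05, 0.06, 0.00 and 0.07. Krt10 (-0.38, adjusted p 0.127) and Krt13 (-0.13, adjusted p 0.633) in the first, Myh1 (0.47, adjusted p 0.248), Myh4 (0.23, adjusted p 0.25), Mylpf (-0.22, adjusted p 0.176) and Tnni2 (-0.21, adjusted p 0.185) in the second, Sox10 (0.20, adjusted p 0.306) in the third, and Itgam (0.26, adjusted p 0.0565) and Dclk1 (0.15, adjusted p 0.395) in the last are the list genes to set beside the members, of which Mylpf and Tnni2, the muscle genes with an unadjusted p under 0.05, are named after their values were seen. In the hard keratin list, with a median of -0.98, the called genes were Krt31 (-1.10), Krt33b (-0.87), Krt34 (-1.16), Krt36 (-0.86), Krt81 (-1.14) and Krt85 (-1.08), with limma adjusted p-values from 0.0407 to 0.0475. Those genes had mean log2 levels from 7.85 to 13.08, above all members but Entpd2 and Pou2f3.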

How the data were processed

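RNA of intact tongue was sequenced as 9 stranded mRNA libraries, per the labels' protocols. TopHat2, HTSeq and DESeq2 and build mm9 are named in the submitters' processing notes; their versions and settings are not stated there. For 20512 symbols the deposited values are log2 normalized expression, made by the authors; read depth is unknown. Genes at 0 in every library (3064) and 1 row without a name were left out. The authors' comparison table gives, per the file headers, a log2 fold change, an adjusted p-value and a mean normalized signal. Over its 981 genes the log2 of the authors' deposited signal exceeded the mean log2 value by a median of 0.03, so both are on 1 scale.

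Differences were fitted with limma 3.58.1 in R 4.3.3, with an intensity trend, terms for group and strata (5 residual degrees of freedom), and a mean log2 value of at least 3; genes under it were read from a fit with no filter. The fit was tested on simulated data. Members, gene lists, strata and tests were chosen with earlier results of these data known. Text names all members, Bmi1, called list genes or, with under 2 called, the list's largest difference and highest level, and the genes most alike; others are marked as named after their values were seen. Some genes that this rule names are not reported here. Replicate numbers follow accession order and pair nothing. Lengths came from GENCODE M21 (94.7% of tested genes matched) and promoters from RefSeq. Alternatives were the group alone, other filters and scalings, no trend, a length correction, each library left out and stratum 2 alone; leaving out stratum 1 was added after seeing the data.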

Additional observations from a re-analysis of the deposited data

How the results depend on the processing

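No paired analysis was possible because the labels give the libraries no replicate numbers that groups share. Under all 18 alternatives limma called 0 tested taste members (lowest adjusted p 0.247), and the 122 values of the 7 tested members ran from -0.10 to 0.10. The direction was the other one in 22 of these, but the alternatives are not all separate checks. Without control or transgene replicate 1, without both, or in stratum 2 alone, Tas1r3 and Gnat3 were at 0.00, Trpm5 at 0.03 and Pou2f3 at 0.05. Only the libraries of stratum 2 set the difference in those settings, so the values are the same by construction. Leaving out control replicate 4 or 5 left the main differences unchanged, since stratum 3 holds no transgene library. Without control replicate 3 Tas1r1 was at 0.00 and Entpd2 at -0.10, and Entpd2 was at -0.03 and -0.00 without transgene replicates 3 and 4. With 1 library left out the values ran from -0.09 to 0.00 for Tas1r1, -0.07 to 0.00 for Tas1r3, -0.05 to 0.00 for Gnat3, -0.09 to 0.03 for Trpm5, 0.01 to 0.10 for Plcb2, -0.09 to 0.05 for Pou2f3 and -0.10 to 0.08 for Entpd2. With the length trend taken out Gnat3 was at 0.07 and Plcb2 at -0.01. The median over the 7 members, -0.03, became 0.03 without both libraries of stratum 1 and in stratum 2 alone, and ranged from -0.07 to 0.03 with 1 library left out.

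Other taste genes called numbered 7 with the group alone, 2 (Fxyd6 and Ncam1) without stratum 1, 1 in stratum 2 alone and 0 to 2 with 1 library left out. The cause was not tested. Bmi1 passed with the group alone (2.44), without stratum 1 (2.73) and without control replicate 1 or transgene replicate 1 or 3; with any 1 library left out, passing or not, its difference ran from 1.77 to 2.74. Counts of calls over all genes moved from 240 to 3537 with the group alone, 1840 without stratum 1, 733 in stratum 2, 69 after quantile normalization, 152 with no filter and 1 with the length trend taken out, and to between 0 and 1841 with 1 library left out. The alternative of the authors' own table gives no value, since it holds no member. The scale of the deposited values limits what can be seen in low genes.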
